A study of Mus musculus with 10 samples.

Results

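Microtubules are hollow polymers of a dimer of alpha and beta tubulin, and in the mouse each subunit of the dimer is encoded by several genes, the isotypes. The isotype proteins are closely alike over most of their length and differ mainly in an acidic tail at the C-terminus, which lies on the outside of the microtubule and is the place where enzymes add or remove tyrosine, glutamate and glycine. Some isotypes are used in most cells, while others are known mainly from neurons, where they build the microtubules of growing axons and dendrites. The genes described here are 10 alpha and beta tubulin isotypes, chosen by gene symbol, with earlier results of these data known. They were 10 of 24302 genes listed, and each of the 10 was found. *Tuba1a*, *Tubb2a*, *Tubb2b*, *Tubb3* and *Tubb4a* were taken as the 5 neuronal isotypes and *Tuba1b*, *Tuba1c*, *Tubb5* and *Tubb6* as the 4 general ones. *Tuba4a* was set apart because it belongs to neither class.

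RNA was taken from whole C57BL/6 mouse embryos at embryonic day 11.5. The study compared 3 wildtype embryos (*Wwc2*+/+), 3 heterozygous embryos (*Zp3-Cre-Wwc2* KO/+) and 4 homozygous *Wwc2* KO embryos (*Zp3-Cre-Wwc2* KO/KO), to ask which genes respond to the loss of *Wwc2*, a scaffold protein of the Hippo pathway. The knockout came from a floxed *Wwc2* allele and a *Cre* driven by the *Zp3* promoter, which is active in growing oocytes, so that the maternal supply of *Wwc2* was removed as well. The values used are the authors' mean normalized read counts per gene over all 10 embryos. A value for single embryos or for 1 genotype was not used here, so the levels carry no error, the depth of each embryo is unknown, and isotype levels were not compared between wildtype, heterozygous and KO embryos. They describe a mean of 10 embryos, 4 of which lacked *Wwc2*.

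The coding ends of 6 isotypes are shown first, because the tail is where the proteins mainly differ. Each line gives the last 20 codons and the stop codon, 5′ to 3′ in the coding direction, from the GENCODE M21 transcripts on GRCm38, with the last codon before the stop in capitals.
Tuba4a: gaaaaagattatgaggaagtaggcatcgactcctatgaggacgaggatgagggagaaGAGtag
Tubb2a: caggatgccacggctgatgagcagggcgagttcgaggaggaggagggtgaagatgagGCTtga
Tubb2b: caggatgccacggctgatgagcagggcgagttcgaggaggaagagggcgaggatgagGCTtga
Tubb3: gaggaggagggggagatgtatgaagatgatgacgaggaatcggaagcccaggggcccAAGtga
Tubb4a: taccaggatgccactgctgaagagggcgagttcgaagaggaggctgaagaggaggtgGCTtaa
Tubb5: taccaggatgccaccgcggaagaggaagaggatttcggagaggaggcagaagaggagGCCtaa

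*Tuba4a* ended in a glutamate codon and so encodes an alpha tubulin without the final tyrosine that is typical of alpha tubulins and that detyrosinating enzymes remove. Glutamate and aspartate codons made up much of each end shown. Among the last 20 codons, *Tuba4a* had 8 glutamate codons and 4 aspartate codons, and *Tubb3* had 8 and 3. The beta isotypes had 8 or 9 glutamate codons each. *Tubb3* was the only beta isotype that ended in a lysine codon. Position by position, the ends of *Tubb2a* and *Tubb2b* differed at 3 of 63 bases.

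The alpha isotypes *Tuba1a*, *Tuba1b* and *Tuba1c* lie near each other on chromosome 15 of GRCm38. *Tuba1a* is at chr15:98949837-98953703 and *Tuba1b* at chr15:98931425-98934565, both on the minus strand and 15.3 kb apart. *Tuba1c* is at chr15:99029891-99038110 on the plus strand, 95.3 kb from *Tuba1b*. *Tuba4a* is at chr1:75214228-75219865 on the minus strand. *Tubb2a* (chr13:34074274-34078007) and *Tubb2b* (chr13:34126748-34130466) form the other cluster, with 48.7 kb between them on the minus strand of chromosome 13. *Tubb3* is at chr8:123411424-123422015 on the plus strand. *Tubb4a* (chr17:57080066-57087782) and *Tubb5* (chr17:35833921-35838306) share chromosome 17 and the minus strand but are far apart. The main transcript of each of the 10 genes has 4 exons.

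The 10 isotypes were among the abundant transcripts of the embryo. They summed to a mean normalized count of 153458, which was 0.600% of the sum over all genes. *Tubb5*, the general beta isotype, had a mean normalized count of 84266 and was the 7th most abundant of 24302 genes by count. *Tuba1a*, the main alpha isotype of developing neurons, followed with 26481. *Tubb2b*, a beta isotype of neural progenitors and young neurons, had 16229, and *Tubb3*, the beta isotype used as a marker of neurons, had 10914. *Tuba1b*, a general alpha isotype, had 7489. These 5 genes stood above the 97th percentile of the 20665 genes with a mean above 0, since *Tuba1b*, the lowest of them, was at percentile 97.7. Among genes with a mean of at least 10, *Tuba1b* was at percentile 96.96. The other 5 isotypes were lower by count. *Tubb4a*, known from brain and myelinating cells, had 2153. *Tubb2a*, a neuronal relative of *Tubb2b*, had 2081. *Tubb6*, a general beta isotype, had 1825, and *Tuba1c*, a general alpha isotype, had 1304. *Tuba4a* was the lowest of the 10 at 715, at percentile 63.2, or 52.1 among genes with a mean of at least 10.

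Longer transcripts give more reads, so levels were compared between genes as the mean normalized count per kb of merged exon. *Tubb5* had 25328 per kb, *Tuba1a* 14687, *Tubb2b* 7074, *Tubb3* 5843 and *Tuba1b* 3994. *Tubb2a* had 1293 per kb, *Tubb4a* 967, *Tubb6* 749, *Tuba1c* 570 and *Tuba4a* 193. On this scale all 10 isotypes were above the median of the detected genes, which was 75.0 per kb. The level of *Tubb5* was 1.72 times that of *Tuba1a* and 131 times that of *Tuba4a*. *Tubb2b* and *Tubb3* were neighbours in the order with a ratio of 1.21. No spread between embryos was at hand for any of these ratios, so it cannot be said which neighbours in the order differed.

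**Figure D1:**
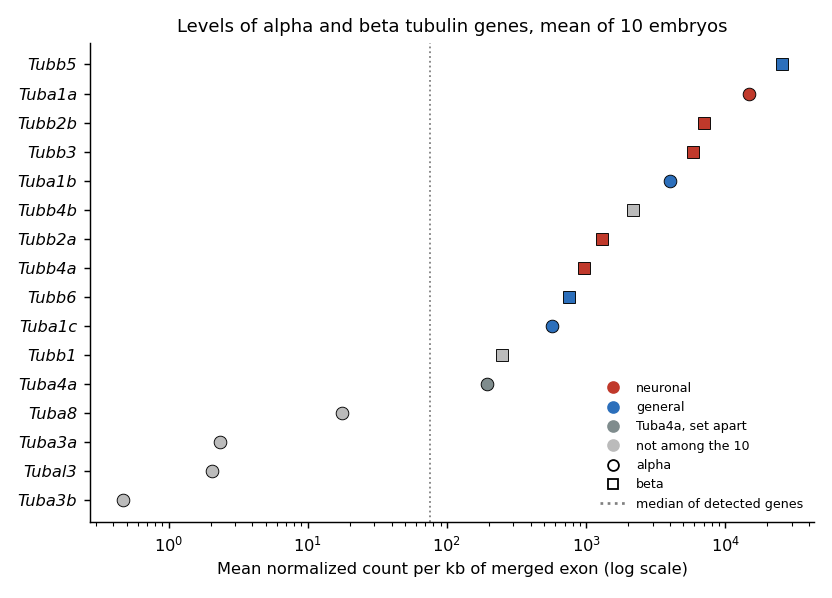
Mean normalized count per kb of merged exon, on a log axis, for the 16 alpha (circles) and beta (squares) tubulin genes listed, each point the authors' mean over 10 embryos. Red marks the neuronal and blue the general isotypes, and the dotted line marks the median of the detected genes at 75.0 per kb. Neuronal isotypes take 3 of the 4 highest places, below *Tubb5*.

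Per kb of merged exon, both classes contributed nearly the same summed level, though not with the coding length (neuronal share 37.5%). The 5 neuronal isotypes summed to 29864 per kb and the 4 general ones to 30641, so that neuronal isotypes made up 49.2% of the summed level of all 10. The alpha and beta sides differed in this. Among alpha isotypes, *Tuba1a*, the neuronal one, made up 75.5% of the summed level, *Tuba1b* 20.5%, *Tuba1c* 2.93% and *Tuba4a* 0.994%. Among beta isotypes the general *Tubb5* made up 61.4%, while the 4 neuronal beta isotypes together made up 36.8%. Of these, *Tubb2b* contributed 17.1%, *Tubb3* 14.2%, *Tubb2a* 3.13% and *Tubb4a* 2.34%. *Tubb6* contributed the remaining 1.82%. The most abundant alpha isotype was thus a neuronal one and the most abundant beta isotype a general one. In RNA of whole embryos, more cells of a type and more RNA per cell cannot be told apart.

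Alpha and beta tubulin enter the dimer in equal numbers. The summed level of the 4 alpha isotypes was 19445 per kb and that of the 6 beta isotypes 41253, a ratio of 0.471. This ratio depends on the length used for each gene and on how reads were treated that fit several isotypes, as the following values show.

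The isotypes are similar enough that single reads can fit more than 1 gene. Over the coding sequence, *Tuba1a* was 98.3% identical to *Tuba1b*, *Tuba1b* was 98.4% identical to *Tuba1c*, and *Tubb2a* was 96.5% identical to *Tubb2b*. *Tuba4a* was between 85.3% and 85.6% identical to the other alpha isotypes. Over all 15 pairs of beta isotypes the identity ranged from 80.7% to 96.5%, with a median of 84.2%, and over the 24 pairs of an alpha with a beta isotype it ranged from 54.5% to 57.5%. To see what this meant at the read length of the study, each main transcript was divided into all of its overlapping windows of 80 bases, and each window was looked up, on both strands, in every other annotated transcript. A window counted as shared where a gene at another place in the genome held exactly the same 80 bases.

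*Tuba1b* was the least distinct of the 10, with 74.7% of its windows shared. *Tuba1c* followed with 56.0% and *Tuba1a* with 54.8%, then *Tubb2a* with 42.1% and *Tubb2b* with 31.3%. The other 5 isotypes, *Tuba4a*, *Tubb3*, *Tubb4a*, *Tubb5* and *Tubb6*, had no shared window. The shared windows lay mainly in the coding sequence. In *Tuba1a*, 74.0% of the windows within the coding sequence were shared and none of those before or after it. In *Tuba1b*, 89.7% of the coding windows and 64.1% of the windows after the coding sequence were shared. The 3 *Tuba1* genes shared windows with each other, *Tuba1b* and *Tuba1c* in 872 windows, *Tuba1a* and *Tuba1c* in 667, and *Tuba1a* and *Tuba1b* in 561. They also shared windows with processed pseudogenes, copies of spliced mRNA in the genome. The pseudogene *Gm17383* held 640 windows of *Tuba1a*, for example. *Tubb2a* and *Tubb2b* shared 603 windows with each other and 128 and 142 with the pseudogene *Tubb2a-ps2*.

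**Figure D2:**
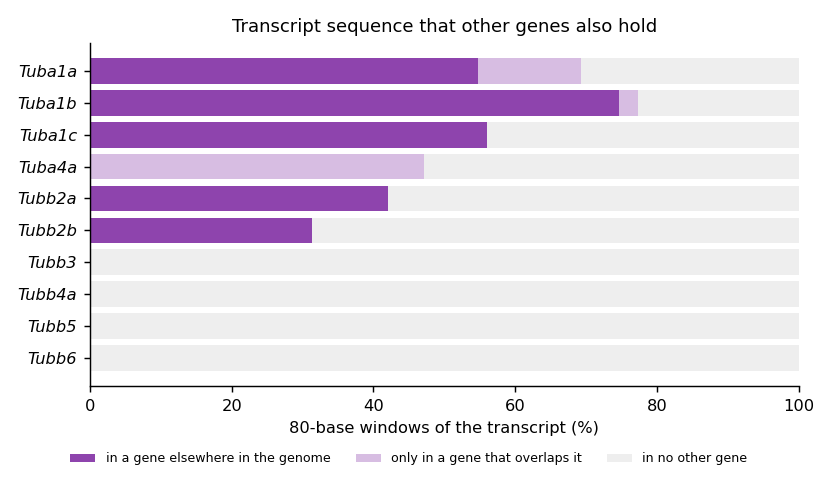
Percent of the 80-base windows of each isotype's main transcript that a gene elsewhere in the genome also holds (dark), that only a gene overlapping the isotype holds (light purple), or that no other gene holds (grey). *Tuba1b* has 74.7% of its windows shared with genes elsewhere, and *Tubb3*, *Tubb4a*, *Tubb5* and *Tubb6* have none.

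Genes that overlap an isotype at its own place were kept separate. In *Tuba4a*, 47.1% of the windows also belonged to *Stk16*, a kinase gene on the opposite strand, which had a mean normalized count of 1494 against 715 for *Tuba4a*. The study's methods name a directional library kit, which keeps the strand, while the labels name the kit without that word. Whether the counting used strand is not given in the sources used here, and if it did not, the reads of *Tuba4a* and *Stk16* could not be told apart there. In *Tuba1a*, 14.5% of the windows, and in *Tuba1b* 2.64%, were held only by overlapping genes. One of these is *Gm49450*, a readthrough gene on the same strand that covers exons of both and that the tables did not list. The values of *Tuba1a*, *Tuba1b*, *Tuba1c*, *Tubb2a*, *Tubb2b* and *Tuba4a* are uncertain to this extent.

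The level of an isotype whose shared reads were left out would be understated. To see how far, each count was divided by the number of windows that no other gene held, overlapping genes included, as if no read from any other window had been counted. *Tuba1a* then had 50059 per kb, *Tuba1b* 19864 and *Tubb5* 32788. The ratio of the summed alpha to the summed beta level rose from 0.471 to 1.32, so that alpha was the higher side, and the neuronal share over all 10 isotypes was 55.9%. In a second form, chosen after seeing the data, windows held only by overlapping genes were kept in the length. *Tuba1b* then had 17788 per kb, 4.45 times its level per kb of merged exon. *Tuba1a* had 33994 and *Tubb5* 32788, so that *Tuba1a* was above *Tubb5* in both forms. In the second form *Tubb5* had 0.964 of the level of *Tuba1a*. *Tuba1b* passed *Tubb2b*, which had 11231, and *Tubb3*, which had 6101. The ratio of alpha to beta was 0.982 in this form, with *Tubb4b* left out of the beta side. *Tuba1a* then made up 63.4% of the alpha level and *Tuba1b* 33.2%, while *Tubb5* made up 60.1% of the beta level. The neuronal share over all 10 isotypes was 50.6% in this form.

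The coding length and the longest transcript moved the ratio of alpha to beta the other way, to 0.302 and 0.411. With the coding length alone, the counts of *Tubb5* came to 63121 per kb and those of *Tuba1a* to 19529, and the neuronal share was 37.5%. *Tubb5* has 3327 bases of merged exon, more of them outside the coding sequence than *Tuba1a* with 1803. *Tubb5* and *Tuba1a* took the top 2 places under each length tried, and *Tuba4a* the lowest.

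**Figure D3:**
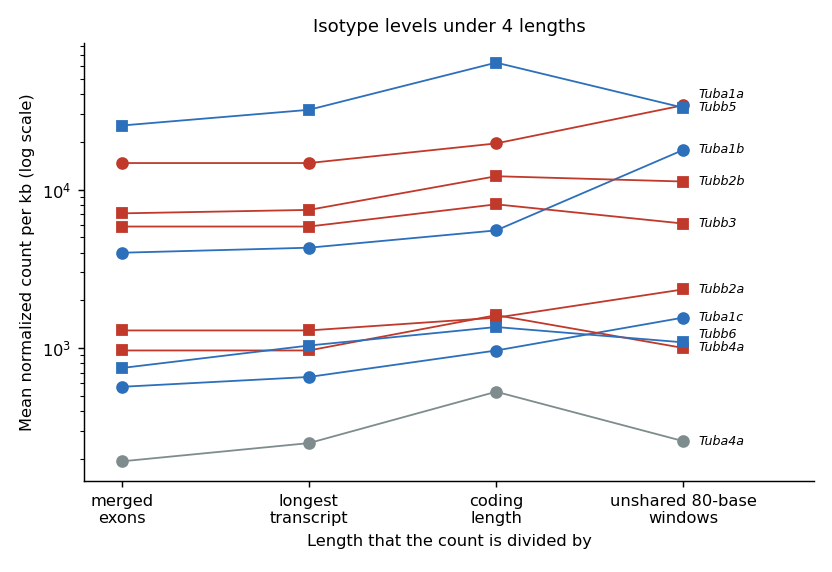
Mean normalized count per kb of the 10 isotypes (log axis) when the count is divided by the merged exons, the longest transcript, the coding length or the 80-base windows that no gene elsewhere holds. Red lines are neuronal, blue general isotypes and the grey line *Tuba4a*, with circles for alpha and squares for beta, and *Tuba1a* passes *Tubb5* only under the unshared windows.

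Of the 6 remaining alpha and beta tubulin genes, *Tubb4b* and *Tubb1* were above the lowest of the 10 isotypes and the other 4 were below it. *Tubb4b*, a general beta isotype of dividing and ciliated cells, had 2176 per kb, above 5 of the 10 isotypes, and 35.8% of its windows were shared. *Tubb1*, the beta isotype of platelets and megakaryocytes, had 250 per kb, above *Tuba4a* with 193. *Tuba8* had 17.6 per kb, *Tuba3a*, an isotype of testis, had 2.34, *Tubal3* had 2.05 and *Tuba3b* had 0.468. The gamma tubulin *Tubg1*, which nucleates microtubules at the centrosome, had 822 per kb, close to *Tubb6*, and its relative *Tubg2* had 71.3. The delta and epsilon tubulins of centrioles, *Tubd1* and *Tube1*, had 100.1 and 55.5 per kb. The pseudogenes *Tubb2a-ps2* and *Gm6682*, named here after their values were seen, were listed with mean normalized counts of 376 and 56.6, that is 281 and 42.0 per kb.

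Genes that act on the tubulin of these isotypes covered a wide range of levels. All 21 chaperonin subunits and folding cofactors listed were detected, with a median of 1786 per kb against 2643 for the 10 isotypes. *Cct2* (5787 per kb) and *Cct5* (5115), subunits of the chaperonin that folds new tubulin, were the highest of them, followed by *Tbca* (4080), a cofactor that binds beta tubulin. *Tbce*, which takes part in joining the dimer, had 145 and *Tbcel* 114. Tubulin mRNAs are known to be degraded when free dimer is abundant. *Ttc5*, which recognises the first residues of nascent tubulin on the ribosome, had 425 per kb. *Cnot11* and *Scaper*, which link *Ttc5* to the deadenylase, had 415 and 186.

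Enzymes that modify tubulin after folding ranged from below 1 per kb to the levels of the lower isotypes. *Vash1* (1170 per kb) and *Vash2* (497), which remove the final tyrosine of alpha tubulin, were above *Ttl* (228), which puts it back. Only 3 of the 5 genes on this list of tyrosination and detyrosination had a value. *Atat1*, which acetylates a lysine of alpha tubulin on the inside of the microtubule and not in the tail, had 437 per kb, and the deacetylases *Hdac6* and *Sirt2* had 387 and 292. The 12 genes of the *Ttll* list, most of which add glutamate or glycine to the tails, had a median of 21.2 per kb. *Ttll12* had 593, *Ttll1* 241 and *Ttll4* 152, whereas *Ttll6* and *Ttll8* had 0.622 and 0.261. Among 6 deglutamylases *Agbl5* was the highest with 221 per kb, followed by *Agtpbp1* with 40.9 and *Agbl3* with 7.38, while *Agbl4* had 0.769 and *Agbl1* 0.474.

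The proteins that bind or cut microtubules or bind free dimers covered a wide range as well. *Stmn1*, which binds free dimers, had 6407 per kb, close to *Tubb3*, while the neuronal stathmins *Stmn3*, *Stmn2* and *Stmn4* had 1383, 789 and 407. The 16 microtubule-associated proteins had a median of 258 per kb. *Map1b*, which is abundant in growing axons, had 1003, the plus-end protein *Mapre1* 914 and the polymerase *Ckap5* 892, while *Map1a* had 122 and *Map7* 40.7. The severing enzymes *Katna1* and *Spast* had 626 and 574 per kb and *Fignl1* had 416, against 71.7 for *Fign* and 38.6 for *Katnal2*. Actins, the other large cytoskeletal family, summed to 47561 per kb against 60698 for the 10 isotypes. *Actb* had 26479 per kb, close to *Tubb5*, *Actg1* had 10868, *Actc1* of early heart and muscle 6658, *Acta1* 1158 and *Actg2* 122.

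**Figure D4:**
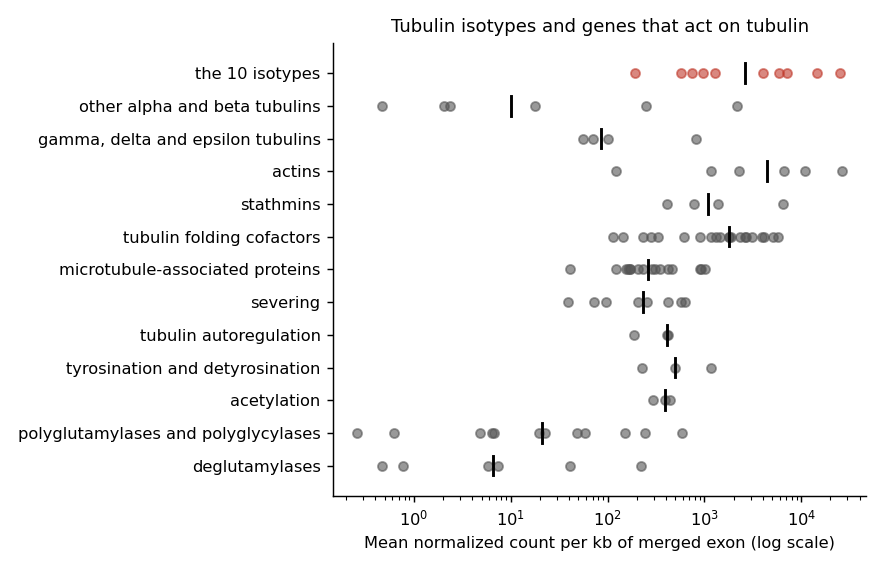
Mean normalized count per kb of merged exon (log axis) of the 10 isotypes (red) and of the genes of 12 related lists (grey), each point 1 gene and each black bar the median of a list. The isotypes have a median of 2643 per kb and the folding cofactors 1786, while the *Ttll* and deglutamylase lists have medians of 21.2 and 6.58.

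Markers of the tissues of an embryo were present beside the isotypes. All 8 neuronal markers were listed above 0, from 53.8 per kb (*Snap25*) and 350 (*Elavl4*) up to 903 (*Nefm*), 1331 (*Nefl*) and 1915 (*Gap43*). *Tubb3* was above each of them on this scale. The 5 markers of neural progenitors ranged from 57.3 to 2750 per kb, the 4 of heart from 291 to 3046, the 3 of endothelium from 408 to 1102 and the 3 of liver from 1475 to 7198. The 4 trophoblast markers, of a tissue outside the embryo proper, ranged from 135 to 3250 per kb, with *Tpbpa* the highest. The study lists *Tpbpa*, *Tpbpb* and *Psg21* among its most upregulated genes in homozygous *Wwc2* KO embryos. Their means over all embryos may thus not describe each genotype. The part of trophoblast RNA in the isotype levels was not tested. Among red cell markers the embryonic globins *Hbb-y* and *Hba-x* had mean normalized counts of 136056 and 72665 and no shared window. The embryonic globin *Hbb-bh1* had 31840, and its windows were not looked up. The adult alpha globin *Hba-a1*, of whose windows 61.1% were shared, was listed at 0, and its near copy *Hba-a2*, with 79.8% shared, had 0.106. The adult beta globins *Hbb-bs* and *Hbb-bt*, with 63.9% and 56.3% shared, were listed at 0 as well. Whether these zeros and the values of *Tuba1a*, *Tuba1b* and *Tuba1c* were shaped by the same treatment of shared reads was not tested.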

How the data were processed

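RNA of 10 whole embryos was sequenced with reads of 80 bases from poly(A)-selected libraries, directional by the study's methods. These methods call the sequencing paired but give a read length that stands for single reads. The windows treat each read as single, and what a paired read would add was not tested. According to the submitters' processing notes and the study's methods, the authors trimmed reads with Trimmomatic 0.33, aligned them to mm10 with HISAT2, counted them per gene with HTSeq and normalized them with DESeq2. The treatment of reads that fit several genes and the strand setting of the counting are not given in the sources used here. Each deposited table lists the mean normalized count over all 10 embryos, a signal value with no unit of length, and the authors' own comparison (log2 fold change, standard error, test statistic, p-value and adjusted p-value). The columns of the comparisons were not used, so no test was made. The means in both tables differed by at most 4.79e-09 of their value.

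Means were divided by the merged exon length in GENCODE M21 (GRCm38, the assembly of mm10), which was found for 23356 of 24302 genes. Windows of 80 bases, or 50 as an alternative, were compared across all annotated transcripts by exact match, and the search was tested on simulated data. Coding identity came from global alignments with Biopython 1.88, in Python 3.11.15 with pandas 2.3.3. The 10 isotypes, all other tubulins, and the 3 highest and 2 lowest genes per kb of each related list were named. The isotypes and lists were chosen with earlier results of these data known. Leaving out genes with a mean under 10, other lengths and other classes were tried as alternatives. The coding ends of 3 alpha isotypes are not reported here.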

Additional observations from a re-analysis of the deposited data

How the results depend on the processing

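The values are means over 10 embryos with no spread, so no alternative could be read against an error, and leaving out single embryos was not possible. No paired analysis was possible because the tables hold no value per embryo and no test was made. The neuronal share of the summed level over all 10 isotypes (49.2%) was 37.5% with the coding length, 44.3% with the longest transcript, 37.7% without division by length, 55.9% with windows that no other gene held and 50.6% with windows that no gene elsewhere held. It was 49.5% with *Tuba4a* counted as neuronal, 47.1% with *Tubb2a* counted as general and 47.5% with *Tubb4b* added, an alternative chosen after seeing the data, as was the second of the window lengths. In the same order of lengths, the neuronal share was 73.6%, 73.8%, 73.6%, 69.6% and 63.4% among alpha isotypes (75.5%; 76.5% with *Tuba4a*) and 26.6%, 32.1%, 26.7%, 37.9% and 37.9% among beta isotypes (36.8%). With *Tubb2a* as general it was 33.7% and with *Tubb4b* 34.9% of beta. The ratio of alpha to beta (0.471) was 0.302, 0.411, 0.306, 1.32 and 0.982, so the side that was higher turned with windows that no other gene held. What *Tubb4b* would change in this ratio was not tested. By the coding length, 6 of the 10 isotype levels moved by over 1.5 times, and by the window lengths 6 and 5 did. Shares of shared windows rose with 50-base windows, under which 8 of the 10 isotypes had one, all but *Tubb3* and *Tubb6*. In *Tuba4a*, *Tubb4a* and *Tubb5* the share was then only 1.11%, 0.184% and 0.115%. The unknown depth limits the level of every isotype. The unknown treatment of shared reads also limits the levels of *Tuba1a*, *Tuba1b*, *Tuba1c*, *Tubb2a* and *Tubb2b*, and the unknown strand setting that of *Tuba4a*.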
